A study of Homo sapiens with 3 samples.

Results

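The 9 genes described here encode core parts of the Polycomb repressive complexes: EZH1, EZH2, EED and SUZ12 of Polycomb repressive complex 2 (PRC2), and CBX2, CBX7, CBX8, BMI1 and RNF2 of Polycomb repressive complex 1 (PRC1). They were taken by name from the gene count tables, by matching Ensembl gene identifiers to GENCODE release 44, and 9 of 9 were found among 58302 genes. The RNA came from C4-2 cells, an established adenocarcinoma line of the human prostate that descends from LNCaP, labelled wild type, with no treatment given. There were 3 libraries of total RNA depleted of ribosomal RNA, all of 1 group, so every comparison below is between genes within a library or between replicate libraries. Nothing states that these were separate cultures, so p-values speak only of these libraries, whose differences may be technical. The neuroendocrine cells and the neuropilin-2 depletion that the series names were not analysed here.

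Polycomb proteins keep developmental genes silent in cells that do not need them. PRC2 places methyl groups on a lysine in the tail of histone H3 through EZH2 or its paralog EZH1, each of which needs EED and SUZ12 to be active. In canonical PRC1, a CBX protein reads that mark, and a RING1 or RNF2 subunit paired with a PCGF protein such as BMI1 attaches ubiquitin to histone H2A. In prostate cancer EZH2 is best known for its rise in advanced disease, and it has also been described as working with the androgen receptor outside PRC2.

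The libraries held 47513470 to 51200272 reads assigned to genes. The 9 genes together took 0.0566% to 0.0584% of them, between 927 and 12169 reads per gene and library. Markers were checked against the labelled cell type: 8 of 8 luminal prostate markers were detected, which here means at least 10 reads in every library, and their summed level was 3468 to 3481 TPM (a read count divided by exon length and scaled so that every library has the same sum). Of 8 neuroendocrine markers 7 were detected at a summed 18.2 to 20.1 TPM, with CHGB not detected. ENO2, an enolase that other cells also express, made up 12.3 TPM of that sum. Of the 8, 3 reached 1 TPM: ENO2, CHGA (2.53 TPM) and SYP (2.29 TPM). Stromal markers (2 of 8 detected) summed to 13.7 to 14.3 TPM, nearly all from COL1A1 (10.2 TPM) and VWF (3.68 TPM), with 0 reads of COL1A2. Blood markers (3 of 8) summed to 4.43 to 5.70 TPM, with NKG7 (2.56 TPM), LYZ (1.28 TPM) and CD14 (0.572 TPM) detected. There were 0 to 2 reads of the leukocyte gene PTPRC and 0 of the T cell gene CD3E.

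All 9 genes were detected, against 71.8% of 19708 protein-coding genes. All 9 lay above the protein-coding median of 5.43 TPM, between the 56.0th and the 94.8th percentile, and the highest exceeded the lowest 14.0-fold. That median and all percentiles given here count every protein-coding gene, including 2579 with 0 reads in all libraries. They are therefore not places among expressed genes, where the 9 would stand lower. From high to low the mean levels were ordered CBX2, EZH2, CBX8, SUZ12, BMI1, RNF2, CBX7, EZH1 and EED. CBX2 and EZH2 held the first places under every length setting tried, and the order below them moved. By canonical transcript length in place of merged exons it was SUZ12, CBX8, EED, CBX7, BMI1, RNF2 and EZH1, and by reads without length scaling SUZ12, CBX8, CBX7, EZH1, BMI1, EED and RNF2. In 2 of the 8 neighbouring steps the TPM ranges of the 3 libraries overlapped: CBX8 with SUZ12, and BMI1 with RNF2. CBX8 was above SUZ12 in 3 of 3 libraries, by 0.10 ± 0.03 log2 units (mean ± SD, n = 3), but BMI1 was above RNF2 in only 2 of 3. The order of CBX8 and SUZ12 turned by canonical transcript length (26.9 against 32.9 TPM) and without length scaling. The smallest mean step between genes whose ranges stayed apart was RNF2 over CBX7, with a lowest value of 14.6 TPM against a highest of 13.9 TPM. That step also turned, with CBX7 above RNF2 over unshared exon bases (16.4 against 14.4 TPM), by canonical transcript length (16.3 against 12.0 TPM) and without length scaling. Fewer cells that express a gene and less RNA per cell cannot be told apart in bulk RNA.

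**Figure D1:**
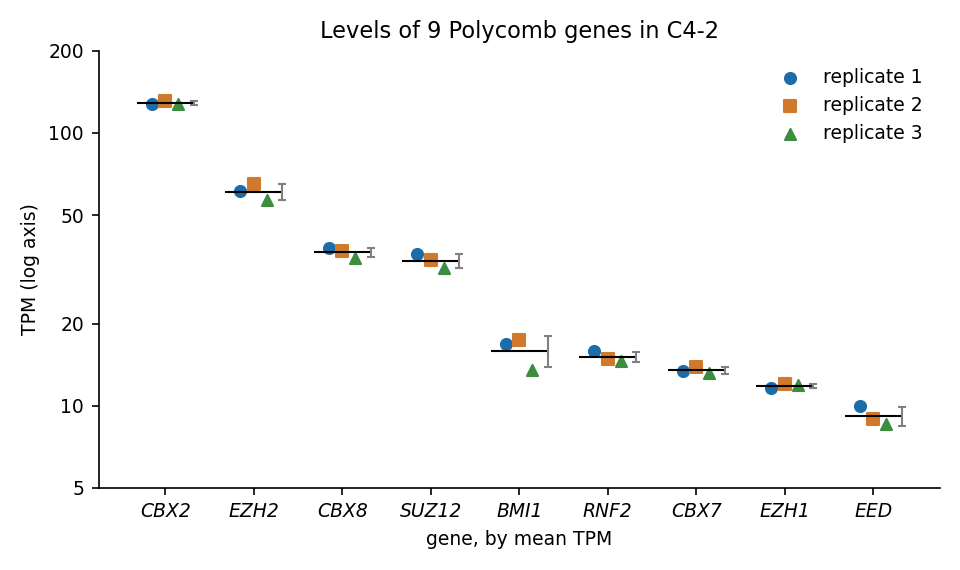
TPM (log axis) of the 9 Polycomb genes in the 3 C4-2 libraries, one symbol per replicate; black lines are means and grey bars 1 SD. CBX2 stands at 127 to 131 TPM above all others, and the lower 5 genes lie between 8.59 and 17.4 TPM.

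EZH2 was the dominant methyltransferase transcript. EZH2 had 4638, 4518 and 4286 reads in replicates 1, 2 and 3, or 61.1, 64.9 and 56.8 TPM (60.9 ± 4.06, SD, n = 3), the 87.6th percentile of protein-coding genes. EZH1, the paralog that is typical of resting and differentiated cells, had 1357, 1292 and 1385 reads, or 11.6, 12.0 and 11.9 TPM (11.8 ± 0.225), the 59.4th percentile. Every EZH2 value was above every EZH1 value. The difference on the log2(TPM + 0.1) scale was 2.39, 2.42 and 2.25 in the 3 libraries, a mean of 2.35 ± 0.09 or 5.11-fold, with the same sign in 3 of 3 (exact two-sided sign-flip permutation test, p = 0.25). That is the smallest p that 3 libraries allow, it was the p of all 9 differences tested in this way, and it was 0.25 after Benjamini-Hochberg adjustment over them, so none could pass 0.05. EZH2 made up 83.7 ± 0.895% of the summed TPM of the EZH pair. Counting reads without length scaling gave a difference of 1.73 log2 units. EZH2 lies on chromosome 7 (148807383 to 148884321, minus strand, GRCh38) and EZH1 on chromosome 17 (42700275 to 42745049, minus strand), as the files annotate them, and neither shares exon bases with another gene.

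The upstream sequences of the PRC2 genes among the 9 are printed because these genes work as 1 complex yet differ in level. EZH2 and EZH1 are its alternative enzymes. The sequences come from RefSeq (GRCh38.p14), where 7 of the 9 genes matched (not CBX2 and CBX8). Each runs 5′ to 3′ on the gene's strand from 200 bases before the annotated start to 20 bases after it. The positions are chr7:148884272-148884491 (minus) for the first of 2 EZH2 starts, chr17:42745021-42745240 (minus) for EZH1, chr17:31936807-31937026 (plus) for SUZ12 and chr11:86244553-86244772 (plus) for EED. Capitals mark 2 motifs searched on both strands, the E2F letters (TTTGGCGC, TTTCGCGC, TTTCCCGC or TTTGCCGC) and CCAAT, which do not overlap here.
EZH2: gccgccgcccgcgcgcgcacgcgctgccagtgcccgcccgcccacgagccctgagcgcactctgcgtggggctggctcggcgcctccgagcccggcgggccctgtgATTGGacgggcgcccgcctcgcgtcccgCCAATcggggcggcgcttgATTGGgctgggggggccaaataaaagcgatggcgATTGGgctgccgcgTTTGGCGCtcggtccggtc
EZH1: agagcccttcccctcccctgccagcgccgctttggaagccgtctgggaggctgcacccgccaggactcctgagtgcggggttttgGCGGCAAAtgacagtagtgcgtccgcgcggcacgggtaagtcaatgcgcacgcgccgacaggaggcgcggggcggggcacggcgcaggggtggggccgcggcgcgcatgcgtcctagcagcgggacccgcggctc
SUZ12: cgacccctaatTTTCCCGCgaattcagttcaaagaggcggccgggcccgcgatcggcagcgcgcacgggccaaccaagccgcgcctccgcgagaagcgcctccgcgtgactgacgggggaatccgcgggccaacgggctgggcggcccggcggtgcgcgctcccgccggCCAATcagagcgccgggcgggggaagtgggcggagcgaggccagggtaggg
EED: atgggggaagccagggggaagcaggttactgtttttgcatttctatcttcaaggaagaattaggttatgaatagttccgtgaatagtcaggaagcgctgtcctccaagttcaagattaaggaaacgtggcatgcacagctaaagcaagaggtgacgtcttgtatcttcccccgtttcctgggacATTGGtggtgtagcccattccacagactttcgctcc

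Within the full windows of 300 bases (250 before to 50 after the start), the E2F letters were found in 3 of the 7 genes, or 3 of their 9 windows, since EZH2 and BMI1 have 2 starts each. In EZH2 the match was TTTGGCGC at positions 2 to 9 counted from the start as 1, in SUZ12 TTTCCCGC at -189 to -182, and in EZH1 TTTGCCGC on the opposite strand at -115 to -108. One was held by 3.31% of 35116 such windows, and 4.56% of the 22675 windows within the same range of GC content (52.3% to 91.0%). That range is not a close match of GC content. Its low end is the EED window alone, and the other windows held 67.0% GC or more. The second EZH2 window held neither motif. CCAAT was present in 4 of the 9 windows (the first of EZH2, with 4 copies, and those of EED, SUZ12 and CBX7), against 34.6% of all windows and 31.3% of those within that GC range. These are matches of letters and not measured sites, and whether they bear on the levels was not tested.

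SUZ12 and EED, the PRC2 genes among the 9 besides the EZH pair, were below EZH2. SUZ12, the scaffold of the complex, had 3960, 3442 and 3485 reads, or 36.0, 34.1 and 31.9 TPM (34.0 ± 2.08, SD, n = 3), the 78.6th percentile. EED, which binds the methylated tail and stimulates the enzyme, had 1177, 968 and 1006 reads, or 9.99, 8.96 and 8.59 TPM (9.18 ± 0.728), the 56.0th percentile and the lowest of the 9 genes. The 3 genes did not overlap in any library.

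EZH2 exceeded SUZ12 by 0.84 ± 0.08 log2 units (1.79-fold) and EED by 2.72 ± 0.12 (6.58-fold), and SUZ12 exceeded EED by 1.88 ± 0.04 (3.68-fold), each in 3 of 3 libraries (exact sign-flip permutation p = 0.25 for each). The low place of EED moved with the length used. Its canonical transcript of 2088 bases is 29.8% of the 7016 bases of merged exons in the files, against 58.7% for EZH2 and 68.7% for SUZ12. Scaled by canonical transcript length, EED rose from 9.18 to 20.5 ± 1.59 TPM and from the ninth to the fifth place, EZH2 minus EED became 1.75 and SUZ12 minus EED 0.68, with unchanged sign. Without length scaling, EZH2 minus SUZ12 was 0.31.

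SUZ12 has a partial copy on the same chromosome, the transcribed pseudogene SUZ12P1, which had 1427, 1193 and 1205 reads, or 35.1% of the SUZ12 reads. Reads that fit both equally were dropped by the counting, so SUZ12 can be undercounted and how far was not tested. EED shares 66 exon bases with the microRNA gene MIR6755 (0.941% of its length). SUZ12 lies on chromosome 17 (31937018 to 32001045, plus strand) and EED on chromosome 11 (86244544 to 86278813, plus strand).

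CBX2 was the highest of the 9 genes and CBX7 was low. CBX2, a PRC1 reader that compacts nucleosome arrays, had 12169, 11465 and 12084 reads, or 127, 131 and 127 TPM (128.5 ± 2.05, SD, n = 3), the 94.8th percentile. CBX8 had 2638, 2361 and 2425 reads, or 37.7, 36.8 and 34.9 TPM (36.5 ± 1.46), the 79.7th percentile. CBX7, the form that is prominent in pluripotent cells, had 1683, 1597 and 1639 reads, or 13.4, 13.9 and 13.2 TPM (13.5 ± 0.375), the 61.5th percentile. The 3 readers kept this order without overlap in every library.

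CBX2 exceeded CBX8 by 1.81 ± 0.06 log2 units (3.52-fold) and CBX7 by 3.24 ± 0.02 (9.46-fold), and CBX8 exceeded CBX7 by 1.43 ± 0.05 (2.69-fold), each in 3 of 3 libraries (exact sign-flip permutation p = 0.25 for each). CBX7 shares 21.6% of its exon bases with other genes, mostly with the unnamed gene ENSG00000279833 (226, 198 and 229 reads), and reads over shared bases were dropped. Over its unshared bases CBX8 minus CBX7 was 1.08, by canonical transcript length it was 0.72, and without length scaling 0.59. CBX2 minus CBX7 stayed at 2.68 or more under these settings.

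CBX6, another canonical reader, was above CBX2, at 189.8 ± 5.21 TPM (SD, n = 3).

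CBX2 and CBX8 are neighbours on chromosome 17. CBX2 (79778132 to 79787983, plus strand) and CBX8 (79792132 to 79801683, minus strand) are 4148 bases apart. Though adjacent, they stood at 128.5 and 36.5 TPM. CBX7 is on chromosome 22 (39120167 to 39152674, minus strand). In all, 4 of the 9 genes are on chromosome 17.

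The catalytic PRC1 subunit RNF2 (RING1B) was well below its paralog RING1. RNF2, the ubiquitin ligase, had 1085, 927 and 994 reads, or 15.9, 14.8 and 14.6 TPM (15.1 ± 0.680, SD, n = 3), the 63.3rd percentile. RING1 stood at 91.7, 86.4 and 92.4 TPM (90.2 ± 3.24). RNF2 minus RING1 was -2.57 ± 0.07 log2 units, lower in 3 of 3 libraries (exact sign-flip permutation p = 0.25), and RNF2 took 14.3 ± 0.592% of the pair. By reads alone, without length scaling, the difference was -1.41 and the share 27.3%. RNF2 lies on chromosome 1 (185045364 to 185102608, plus strand), shares no exon bases, and its processed pseudogene RNF2P1 had 8 to 10 reads.

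BMI1 was below its close paralog PCGF2. BMI1 (PCGF4), which pairs with the RING subunit and restrains the CDKN2A locus, had 1210, 1147 and 969 reads, or 16.8, 17.4 and 13.5 TPM (15.9 ± 2.07, SD, n = 3), the 64.2nd percentile. Replicate 3 was the low one. PCGF2 stood at 47.3, 46.9 and 52.6 TPM (48.9 ± 3.18), and replicate 3 was there the high one. PCGF2 minus BMI1 was 1.62 ± 0.29 log2 units (3.07-fold), positive in 3 of 3 libraries (exact sign-flip permutation p = 0.25), with 1.49, 1.43 and 1.95 in the single libraries.

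Of the summed TPM of 6 PCGF genes, PCGF2 took 33.9 ± 2.41%, PCGF3 27.5 ± 0.192%, PCGF6 12.3 ± 0.850%, BMI1 11.0 ± 1.41%, PCGF1 7.72 ± 0.231% and PCGF5 7.58 ± 0.244%. The BMI1 share was 9.24% to 10.7% under the other length settings, but the order of the group moved. Without length scaling PCGF3 (42.1%) was above PCGF2 (24.5%), PCGF5 was 13.0%, PCGF1 4.17% and PCGF6 6.59%. By canonical transcript length PCGF1 was 15.5%, and over unshared bases BMI1 (10.7%) was above PCGF6 (9.15%). Both BMI1 and PCGF2 share exons. BMI1 shares 1000 bases (23.3%) with the readthrough gene COMMD3-BMI1, all of whose exon bases lie in other genes and which therefore had 0 reads, and PCGF2 shares 45.7% of its bases, mostly with CISD3, which itself had 8931, 7663 and 8773 reads. Over unshared bases BMI1 was 19.8 ± 2.57 TPM, and PCGF2 minus BMI1 was 2.12. BMI1 lies on chromosome 10 (22321211 to 22331484, plus strand).

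**Figure D2:**
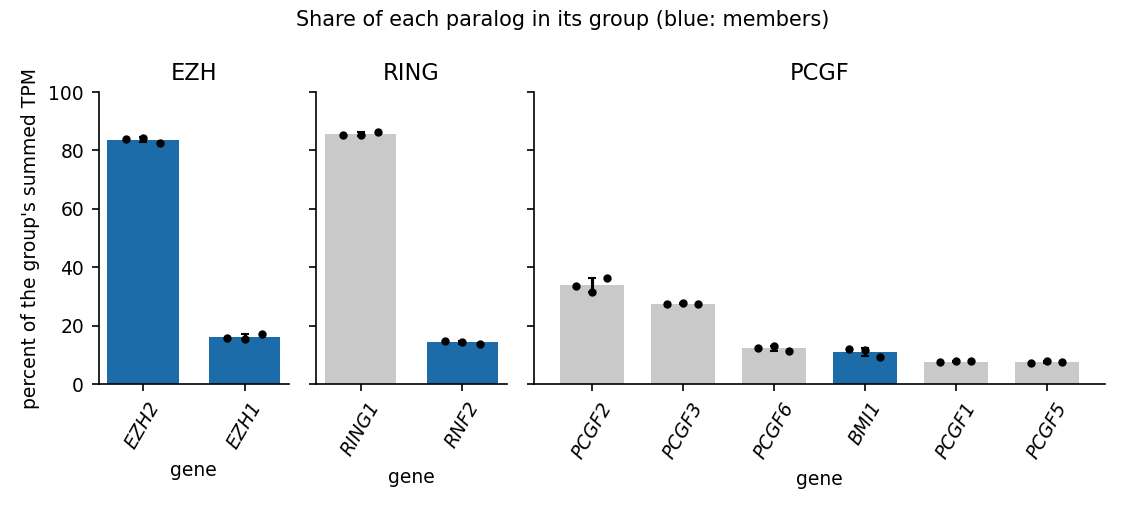
Share of each gene in the summed TPM of its paralog group (percent); bars are means, error bars 1 SD and dots the 3 libraries, with EZH2, EZH1, RNF2 and BMI1 in blue and other paralogs in grey. EZH2 takes 83.7% of the EZH pair, whereas RNF2 takes 14.3% and BMI1 11.0% of their groups.

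**Figure D3:**
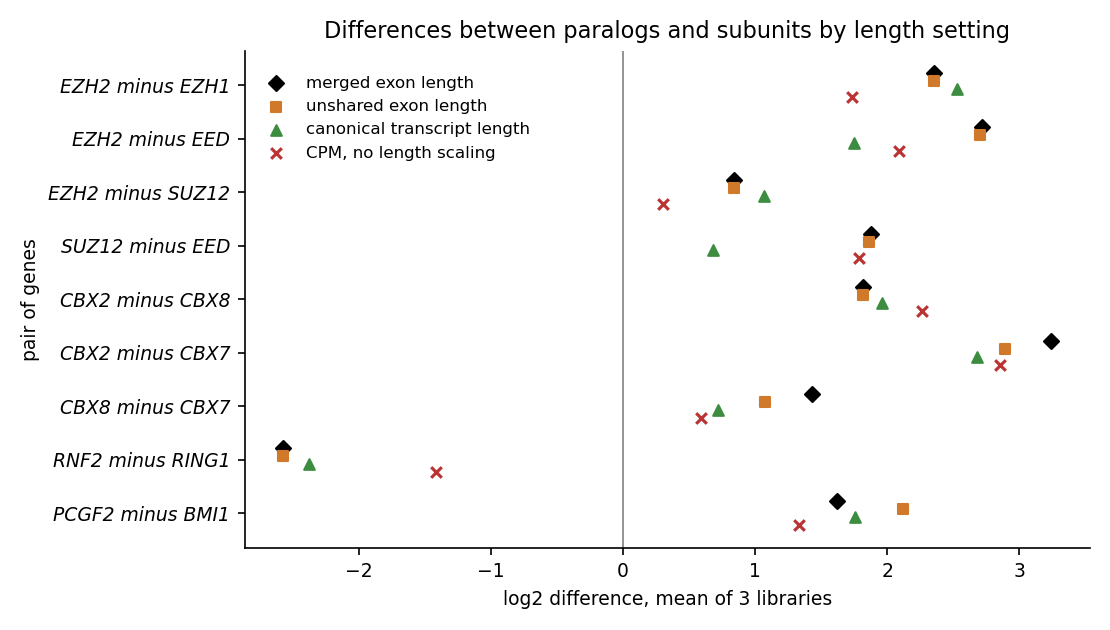
Mean log2 difference over 3 libraries for 9 pairs of paralogs or subunits, under 4 ways of scaling by length; black diamonds are the values on merged exon length. Every pair keeps its sign, while SUZ12 minus EED moves from 1.88 to 0.68 and CBX8 minus CBX7 from 1.43 to 0.59.

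The other Polycomb genes were nearly all expressed. Of 46 further genes in 4 lists 45 were detected and 44 reached 1 TPM, with a median of 26.5 TPM, against a median of 15.9 TPM for the 9 genes and 5.43 TPM for all protein-coding genes. Of the 9 genes, CBX2, EZH2, CBX8 and SUZ12 lay above that median of 26.5 TPM and 5 below. Among the 55 genes in all, CBX2 ranked 3 and EED 48, and 5 reached 100 TPM.

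The PRC2 genes listed as accessory were led by RBBP4 (80.5 ± 3.98 TPM) and RBBP7 (47.6 ± 0.483), histone chaperones that are also counted in the core. EPOP, an adaptor to elongin, lay between them at 56.5 ± 4.14 TPM. In this list 10 of 11 genes were detected. The exception was EZHIP, an inhibitor of PRC2, with 2, 0 and 2 reads. Canonical PRC1 partners were all detected (9 of 9), with CBX6 and RING1 among the highest. Genes listed for variant PRC1, which works without a CBX reader, were all detected (18 of 18), with a list median of 21.0 TPM. The highest were DCAF7 (114.7 ± 6.60 TPM), WDR5 (96.7 ± 4.37) and FBRSL1 (75.3 ± 1.98), so these 3 do not stand for the list.

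Of 8 genes listed for removal of the Polycomb marks, all 8 were detected and 7 reached 1 TPM. Beside enzymes the list holds the ASXL genes, which do not encode enzymes. The demethylase genes KDM6A and KDM6B stood at 120.4 ± 5.28 and 72.7 ± 1.80 TPM, and BAP1, which removes ubiquitin from histone H2A, at 66.8 ± 2.50 TPM. On merged exon length KDM6A (115 to 126 TPM) lay below CBX2 and above EZH2 without overlap. By mean log2 level over the 3 libraries, the gene of these lists nearest to each member was USP7 for EZH2 (0.01 log2 units apart), PCGF1 for EZH1 (0.08), PHF19 for EED (0.08), L3MBTL2 for SUZ12 (0.07), KDM6A for CBX2 (0.09), PCGF3 for CBX8 (0.13), E2F6 for CBX7 (0.13), and AEBP2 for both BMI1 (0.05) and RNF2 (0.02).

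**Figure D4:**
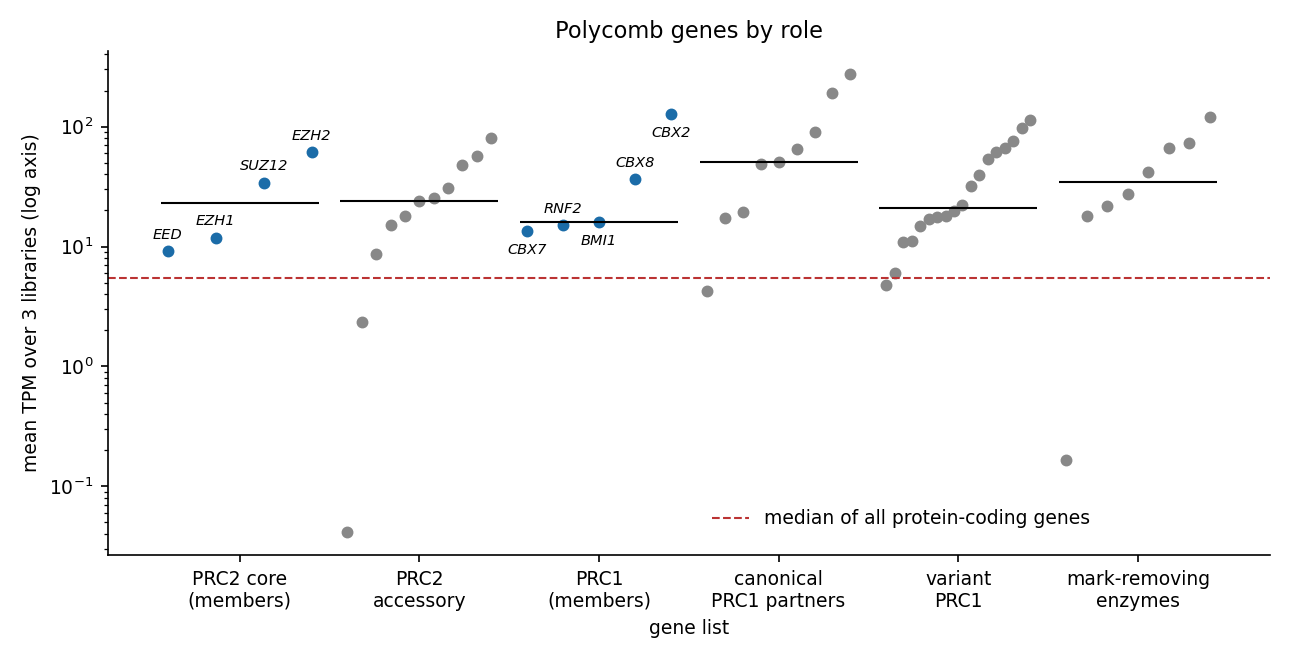
Mean TPM over 3 libraries (log axis) of 55 Polycomb genes by role; each dot is a gene, black lines are list medians, blue dots the 9 Polycomb genes described, and the dashed line the median of all protein-coding genes (5.43 TPM). Canonical PRC1 partners have the highest list median, 50.7 TPM. RBBP4 and RBBP7, also counted in the PRC2 core, are drawn with the accessory list. The ASXL genes, which do not encode enzymes, are drawn with the mark-removing enzymes.

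Genes that Polycomb complexes are known to hold silent were low but not all absent. Of 24 developmental transcription factor genes that are textbook targets, 17 were detected (70.8%, beside 71.8% of protein-coding genes) and 13 reached 1 TPM, and their median was 1.21 TPM beside 5.43 TPM. PAX9 (13.5 ± 0.312 TPM) and GATA6 (11.0 ± 0.939) were the highest. The 7 not detected were led by OLIG2 with 30, 12 and 8 reads and HAND2 with 8, 0 and 14, followed by PAX7 (10, 6 and 2), NEUROG2 (4, 0 and 2) and LHX5 (1, 2 and 2). NEUROG1 and OLIG3 had 0 reads, which allows up to 0.0631 CPM (reads scaled to the library total, not by length) in the smallest library, from counting error only.

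Of 6 genes that have been named as EZH2 targets in prostate cancer, all 6 were detected. CDH1 was at 224.8 ± 5.28 TPM and MSMB at 13.6 ± 0.491. With no PRC2-depleted sample among the libraries, these are levels only.

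Between libraries, CBX7 and CBX2 varied least of the 9 genes and BMI1 most. The coefficient of variation of their CPM, scaled by TMM (edgeR's trimmed mean of M-values), ran from 0.546% for CBX7 to 10.8% for BMI1. CBX7 had 32.9, 33.2 and 33.1 CPM, and CBX2 had 237.8, 238.7 and 244.4. BMI1 had 23.6, 23.9 and 19.6 CPM, so replicate 3 stood below the others, and EED had 23.0, 20.2 and 20.3, with replicate 1 above. The common biological coefficient of variation over detected genes was 7.37% in edgeR. It leaves out counting error, which the coefficients above include, so the 2 are not alike. On edgeR's measure for single genes, the 9 ran from 4.22% for CBX2 to 6.52% for BMI1.

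A chi-square test of equal proportions across libraries, with Benjamini-Hochberg adjustment over 21039 detected genes, called 4 of the 9 genes and 46.1% of all genes. The 4 were BMI1 (adjusted p = 2.33e-05), SUZ12 (adjusted p = 0.000445), EZH2 (adjusted p = 0.00261) and EED (adjusted p = 0.00786). Among 7366 genes within the same range of mean reads as the 9 genes, 60.2% were called. The count of 4 was thus near or below the background. Most small counts were even (78.7% to 84.6% of counts from 1 to 10), the pattern that counting both mates of a fragment would give, and the statistic was therefore also halved. Then 1 of the 9 genes, BMI1, was called (adjusted p = 0.0141), beside 17.6% of all genes, and SUZ12 missed the threshold (adjusted p = 0.0502). Each of the 4 calls rested on particular libraries, with the statistic not halved. BMI1 was not called without replicate 3 (adjusted p = 0.90). EED (adjusted p = 0.913) and SUZ12 (adjusted p = 0.615) were not called without replicate 1, nor was EZH2 without replicate 2 (adjusted p = 0.108) or replicate 3 (adjusted p = 0.198).

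**Figure D5:**
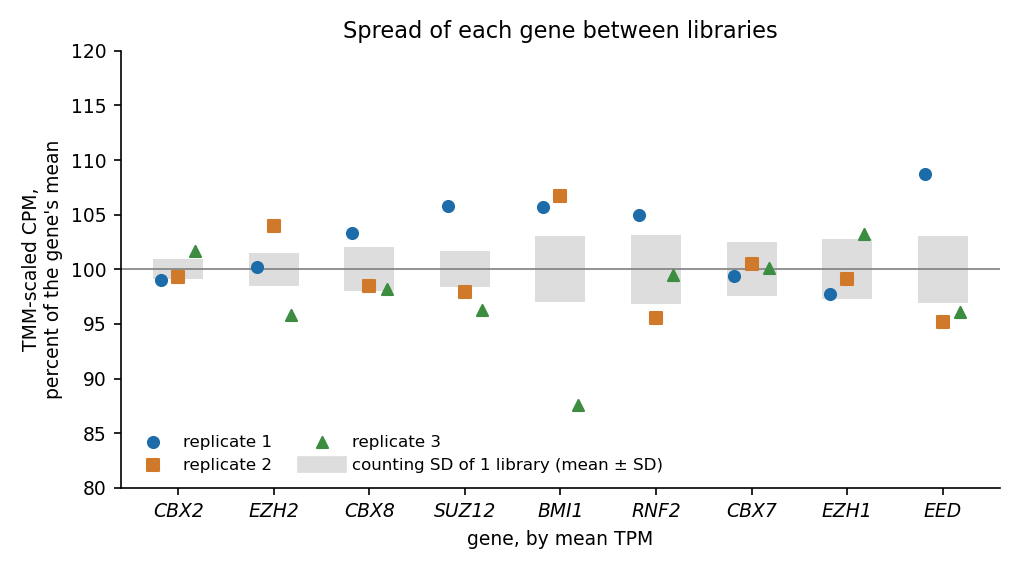
TMM-scaled CPM of the 9 Polycomb genes in each library as a percentage of the gene's mean (the axis runs from 80 to 120); grey bands show 1 counting SD either side of the mean with each read taken as independent. CBX7 stays inside its band, and BMI1 in replicate 3 lies farthest from its mean.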

How the data were processed

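RNA of 3 C4-2 libraries was prepared with Trizol, columns, ribosomal depletion and a directional kit, per the labels' protocols. The authors deposited raw read counts per gene from featureCounts 1.6.3, over Ensembl release 90 exons on GRCh38, per the file headers. STAR 2.7.0f, Trim Galore, FastQC and DESeq2 1.26.0 are named by the submitters' processing notes. The command in the headers set neither strand nor pairs nor multi-mapping; by that program's defaults, strand is ignored, reads over several genes or places are dropped, and mates, if any, are counted singly.

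TPM was computed from those counts and the files' exon lengths over all genes. The 57532 of 58302 identifiers found in GENCODE release 44 (98.7%) gave names and canonical transcript lengths. Differences were taken as log2(TPM + 0.1), which understates differences of low genes, and compared with 0 by flipping signs over the 3 libraries (exact, two-sided). Variation between libraries was tested over all 21039 genes with 10 or more reads in each, by chi-square against TMM library sizes. The test was checked on simulated counts of independent reads. That check does not cover mates counted singly or further spread between libraries. Tools were R 4.3.3, edgeR 4.0.16, DESeq2 1.42.0 (size factors only), Python 3.11.15, numpy 2.4.6, pandas 2.3.3, scipy 1.17.1 and matplotlib 3.10.9. Members, lists and pairs were chosen with earlier results of these data known. Named outside the 9 members are the 3 highest genes of each list (some are not reported here), those with under 10 reads in any library, the nearest genes in level, and genes of the pairs; marker lists are given as sums. Other paralogs, the marker genes named beside those sums, the ASXL genes, SUZ12P1, RNF2P1 and overlapping neighbours were added after their values were seen. Limits of 3 reads, and SDs, cover counting or library spread only. Alternatives were the length scaling, pseudocount, library scaling, read minimum, halved statistic and each library left out.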

Additional observations from a re-analysis of the deposited data

How the results depend on the processing

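The 9 differences between paralogs or subunits kept their direction in 72 of 72 recomputations. These used unshared exon length, canonical transcript length, CPM, pseudocounts of 1 and 0.01 TPM, and each library left out. Every pair had 1 sign in all 3 libraries, so leaving a library out or changing the pseudocount could not turn it. Only the length settings and CPM could have turned a sign. Of 54 recomputed member levels, 32 moved by less than 1 SD. Leaving out 1 of 3 libraries cannot move a mean by 1 SD, so those levels were bound to stay. Under the other settings most levels moved. The exceptions were EZH2, EED and SUZ12 over unshared exon bases, and EZH1 and SUZ12 by canonical transcript length. Taken over protein-coding nuclear genes only, levels were higher, for example 92.5 TPM for EZH2. The number of members varying between libraries was 4 with raw totals, with DESeq2 size factors and with the minimum lowered to a mean of 1 read. It was 1 with the statistic halved, and 2 to 3 with 1 library left out (2 without replicate 1 or without replicate 3). Over all genes 9707 varied, 3710 with the statistic halved and 5180 to 7106 with 1 library left out (5214 without replicate 2 and 5180 without replicate 3). The cause was not tested. All 9 members were detected at a minimum of 1 or 30 reads. No paired analysis was possible because there is only 1 group. With 3 libraries no sign-flip test could pass 0.05.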
